A study of Saccharomyces cerevisiae with 11 samples.

Results

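Long protein-coding genes were followed from end to end to see where along the gene the cap-binding complex (CBC) and the RNase III enzyme Rnt1 were found on chromatin. The members were the protein-coding genes of 4000 bp or more on the 16 nuclear chromosomes of Saccharomyces cerevisiae, measured from gene start to gene end in the R64 annotation. FAS1, FAS2, ACC1, FKS1, URA2, HSL1 and the open reading frames of Ty transposons were left out. Of 240 nuclear coding genes of that length, these exclusions removed 6 named genes and 44 Ty reading frames, which left 190 members of 5905 coding genes under the same exclusions. They spanned 996320 bp, or 8.25% of the nuclear genome, with a median length of 4732.5 bp (range 4002 to 14733 bp), and 94 lie on the plus strand and 96 on the minus strand. Each gene was split into 10 equal bins from 5ʹ to 3ʹ, and the share of bases under ChIP-seq peaks was taken in every bin.

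The series holds 11 samples, of which the 4 ChIP-seq libraries were used, 2 of Rnt1-myc and 2 of Cbp20-myc. All come from MATa his3Δ1 leu2Δ0 met15Δ0 ura3Δ0 yeast grown in rich YPD medium at 30 °C, and chromatin was precipitated with an antibody to the myc tag. The Rnt1 strain carries RNT1-myc13::NAT, whereas the genotype listed for the Cbp20 libraries is CBP80-myc13::NAT, the other CBC subunit. The strain list of the study gives CBP80-myc13::HIS for the Cbp20-myc strain, so the marker differs between the sources. The name Cbp20 is kept as in the titles. No untagged strain or other background sample was analysed here, so a share under peaks has no background measured in the same way, and the methods describe at least 4 immunoprecipitations pooled for a library. The labels number only the second library of each protein, so the other is called replicate 1. The methods say in general that experiments had biological replicates, but not from which cultures these libraries came.

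CBC is the pair of Cbp20 and Cbp80 that binds the methylated guanosine cap on the 5ʹend of a new RNA Polymerase II (Pol II) transcript and accompanies the nascent RNA. Rnt1 is the nuclear enzyme that cuts double-stranded stems capped by a loop of AGNN, among others in precursors of ribosomal RNA, small nuclear RNA (snRNA) and small nucleolar RNA (snoRNA). ChIP-seq sequences DNA crosslinked to a protein, so a protein that rides on nascent RNA is seen over the stretch of gene where that RNA is still attached to its polymerase. In a long gene, the start and the end are far enough apart for this place to be read.

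Each library has a list of peaks of its own with positions alone. Rnt1 had 1238 and 1741 peaks that covered 5.92% and 9.98% of the nuclear genome in replicates 1 and 2, and Cbp20 had 3801 and 3648 peaks that covered 23.1% and 21.6%. How deeply a library was sequenced is not recorded, and a base outside the peaks is one where the signal did not pass the threshold of the peak caller, not one without the protein. One group of members stood apart. These are the 11 helicase genes of the Y' elements, repeats at the chromosome ends (YRF1-1 to YRF1-8, YIL177C, YJL225C and YML133C), in which at most 3.77% of bases lie in a 50 bp stretch found once in the genome. They had 0.953% and 8.12% of bases under Rnt1 peaks and 3.13% and 28.4% under Cbp20 peaks in replicates 1 and 2, and they held 17.4% of the Cbp20-covered bases of all members in replicate 2, against 2.18% in replicate 1. The profile, the comparisons and the counts are therefore also given without them. Whether reads from repeated copies had a part in these values was not tested.

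The sequences under the narrowest Rnt1 regions inside long genes are shown because both Rnt1 libraries cover them inside the gene body. They are bases shared by the 2 libraries, and their width is that of the replicate 1 peak. Shared regions of up to 300 bp that lie within bins 2 to 9 were found 8 times, in RPO21, ADE6 and RPA190. Each of these genes has a single coding exon, so all the regions are exonic. The 4 narrowest are printed, followed by the one that holds a hairpin with an AGNN loop, in the sense of transcription and in RefSeq R64 (sacCer3) coordinates. In replicate 2 the stretches of RPO21 lie under a peak of 2036 bp, that of ADE6 under one of 3993 bp and those of RPA190 under peaks of 294 and 1170 bp. Capitals mark that hairpin, a stem of 6 pairs (Watson-Crick or G-U) around the loop.
RPO21 chrIV:207288-207441 (minus strand): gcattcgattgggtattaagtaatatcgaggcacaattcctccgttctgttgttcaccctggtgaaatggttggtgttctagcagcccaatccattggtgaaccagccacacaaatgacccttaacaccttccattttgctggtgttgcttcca
ADE6 chrVII:613478-613669 (minus strand): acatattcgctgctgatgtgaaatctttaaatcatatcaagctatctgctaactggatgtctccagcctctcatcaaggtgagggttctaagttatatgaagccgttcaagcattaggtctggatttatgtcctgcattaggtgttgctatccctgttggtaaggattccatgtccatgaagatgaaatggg
RPA190 chrXV:962288-962492 (plus strand): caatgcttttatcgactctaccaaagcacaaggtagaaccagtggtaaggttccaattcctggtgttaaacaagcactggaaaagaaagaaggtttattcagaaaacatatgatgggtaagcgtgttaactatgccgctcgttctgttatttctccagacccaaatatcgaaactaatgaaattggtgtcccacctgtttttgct
RPA190 chrXV:963134-963338 (plus strand): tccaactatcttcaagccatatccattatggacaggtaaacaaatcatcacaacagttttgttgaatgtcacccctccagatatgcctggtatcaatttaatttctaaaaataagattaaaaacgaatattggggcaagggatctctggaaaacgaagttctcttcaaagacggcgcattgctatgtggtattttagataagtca
RPO21 chrIV:206582-206845 (minus strand): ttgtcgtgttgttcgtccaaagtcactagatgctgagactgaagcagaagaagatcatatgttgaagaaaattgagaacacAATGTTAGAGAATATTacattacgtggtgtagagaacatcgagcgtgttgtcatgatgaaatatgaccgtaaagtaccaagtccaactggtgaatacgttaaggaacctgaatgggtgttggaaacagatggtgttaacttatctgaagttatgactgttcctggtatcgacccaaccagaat
The first stretch lies at bases 3121 to 3274 of RPO21, the second at bases 2297 to 2488 of ADE6, the next pair at bases 1302 to 1506 and 2148 to 2352 of RPA190, and the last at bases 3717 to 3980 of RPO21. The sense strand was searched, and AGNN closed by 6 pairs overlaps no other motif searched. One of the 8 regions held it (12.5%), against 2.87% to 5.84% of consecutive windows of the same widths along all 190 members. A match is a description of the letters and not a cut site, and 7 regions without one say only that these letters are not there.

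Rnt1 covered little of the long genes anywhere, whereas Cbp20 was found over their 5ʹpart and was much scarcer over their 3ʹpart. Among the 10 bins, Rnt1 replicate 1 covered between 1.08% of bases (the seventh bin) and 2.54% (the last), and Rnt1 replicate 2 between 2.21% (the first bin) and 5.02% (the second). From the first bin to the last, Cbp20 replicate 1 covered 17.1, 16.4, 14.6, 10.8, 7.72, 3.63, 3.30, 3.25, 2.94 and 4.13% of bases. Cbp20 replicate 2 covered 16.2, 17.0, 16.0, 13.4, 7.97, 4.34, 5.49, 6.70, 2.79 and 5.49%. Without the Y' genes Rnt1 covered between 1.14% and 2.53% in replicate 1 and between 2.35% and 4.66% (the fourth bin) in replicate 2. Cbp20 then covered 18.0, 17.1, 15.4, 11.2, 8.20, 3.86, 3.30, 2.64, 3.12 and 4.38% in replicate 1 and 16.6, 15.6, 14.97, 11.8, 7.92, 4.01, 3.13, 2.35, 2.89 and 4.31% in replicate 2, so the higher seventh and eighth bins of replicate 2 came from the Y' genes. Both Cbp20 libraries were high in the first 3 bins, had fallen off by the sixth and stayed low to the end, and no such fall was seen in either Rnt1 library.

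**Figure D1:**
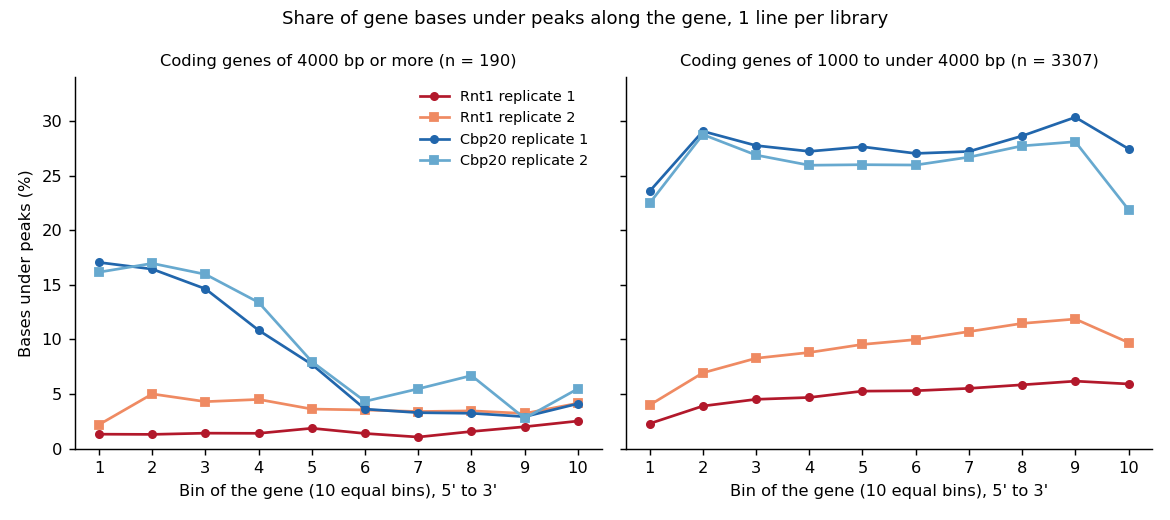
Share of gene bases under peaks (%, vertical axis) in each bin of the gene from 5ʹ to 3ʹ (horizontal axis), 1 line per library, for 190 long genes, Y' genes included, on the left and 3307 shorter coding genes on the right. On long genes both Cbp20 lines drop by the sixth bin to 3.63% and 4.34%, and on shorter genes they stay between 21.9% and 30.3% along the whole gene.

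Over whole genes, Rnt1 peaks covered 2.68 ± 1.52% of the members' bases and Cbp20 peaks 8.96 ± 0.801% (SD, n = 2 libraries each). These shares were 1.64% and 3.48% for Rnt1 and 8.72% and 8.36% for Cbp20 in replicates 1 and 2 without the Y' genes. Rnt1 was lower by 6.28 percentage points, and the difference was -6.79 in replicate 1 and -5.77 in replicate 2. A two-sided exact permutation test over the libraries gave p = 0.333, the smallest p that 2 libraries against 2 can reach, so no comparison of the proteins could pass a threshold of 0.05. The 5ʹto 3ʹcontrast, taken as the share in the first 3 bins minus the share in the last 3, was -0.685 and 0.225 percentage points for Rnt1 in replicates 1 and 2, against 12.6 and 11.4 for Cbp20. Cbp20 covered 16.0% and 16.4% of the first 3 bins and 3.44% and 4.99% of the last 3. The contrast of Rnt1 was below that of Cbp20 by 12.2 percentage points, with the groups of libraries apart (exact permutation p = 0.333, again the smallest possible), and the sign of the Rnt1 contrast differed between its own 2 libraries. Without the Y' genes, the contrast was -0.531 and 0.664 for Rnt1 and 13.5 and 12.6 for Cbp20, and the last 3 bins held 3.38% and 3.18% under Cbp20 peaks.

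Shorter coding genes of 1000 to under 4000 bp did not share this profile. Long genes had 8.39% and 9.53% of bases under Cbp20 peaks and shorter genes 27.6% and 26.0%, a difference of -17.9 percentage points on average. The Cbp20 contrast was 12.6 and 11.4 on long genes, against -2.01 and 0.140 on shorter genes, so it was higher by 12.9 points on long genes and higher in each of the 2 libraries. Rnt1 covered 1.60% and 3.75% of long genes and 4.95% and 9.14% of shorter genes, which is 4.37 points less on long genes. On shorter genes Rnt1 leaned to the 3ʹside, with contrasts of -2.41 and -4.61. The contrast of long genes exceeded theirs by 1.72 points in replicate 1 and 4.83 in replicate 2. A contrast in points also depends on coverage. The Rnt1 share of the first 3 bins over that of the last 3 was 0.665 on long and 0.598 on shorter genes in replicate 1. In replicate 2 this ratio was 1.06 and 0.582, so the relative lean clearly differed in replicate 2 alone. Without the Y' genes in either class, the differences were -18.3 points for the Cbp20 share, 13.9 for the Cbp20 contrast, -4.49 for the Rnt1 share and 3.555 for the Rnt1 contrast. For each of these differences the two-sided exact sign-flip test within libraries gave p = 0.5, the smallest that 2 libraries allow. Genes of 3000 to under 4000 bp, next below the threshold, had Cbp20 contrasts of 13.1 and 10.8, and long genes differed from them by -0.446 in replicate 1 and 0.564 in replicate 2 (exact sign-flip p = 1). That difference was 0.220 and 1.49 without the Y' genes (exact sign-flip p = 0.5), so its sign in replicate 1 depended on them. The 5ʹlean of Cbp20 thus did not begin at 4000 bp. Its coverage did differ, with 8.39% and 9.53% of long genes against 16.9% and 16.1% of genes of 3000 to under 4000 bp under peaks. The difference in coverage was -8.37 and -7.63 points without the Y' genes.

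Counted in base pairs from the start rather than in bins, Cbp20 fell off over much the same stretch in members of different lengths. These distances were chosen after the profile by bins had been seen, and the Y' genes were left out. In the 116 members of 4000 to under 5000 bp, successive steps of 500 bp from the start had 20.4, 17.9, 17.9, 13.1, 6.74 and 4.12% of bases under Cbp20 peaks in replicate 1, and 18.3, 16.6, 17.5, 11.7, 7.23 and 4.60% in replicate 2. In the 34 members of 6000 bp or more the same steps had 14.5, 11.3, 15.2, 6.52, 5.73 and 2.81% in replicate 1 and 10.3, 10.9, 14.6, 7.76, 8.91 and 3.88% in replicate 2, and no base between 4500 and 6000 bp from the start was under a Cbp20 peak. The 29 members of 5000 to under 6000 bp were less regular, with a second step up to 14.3% and 13.1% between 2000 and 2500 bp that came from 5 and 4 genes.

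**Figure D2:**
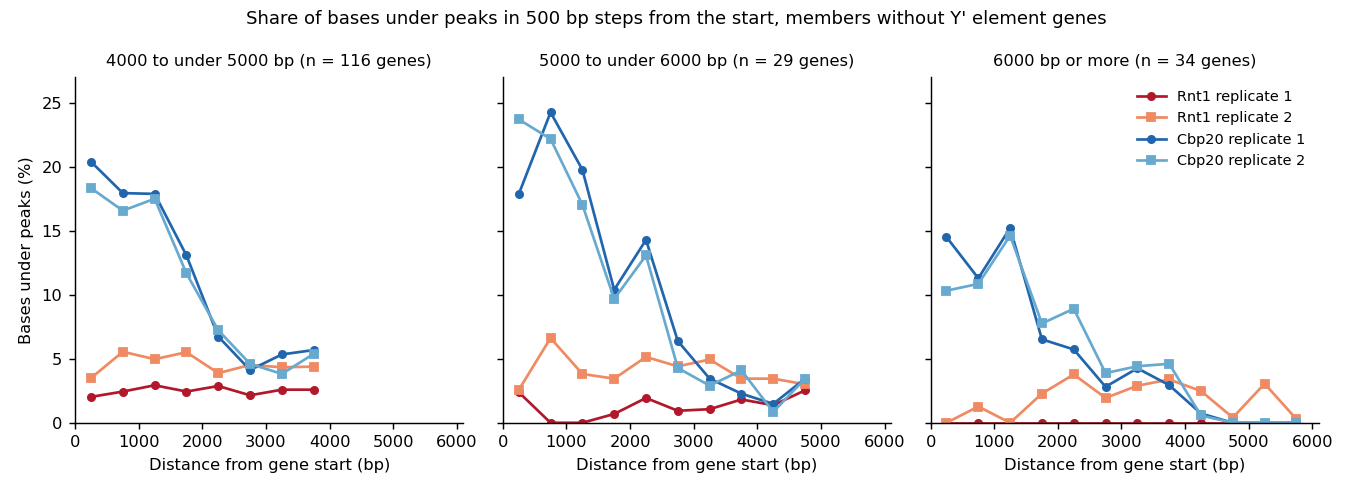
Share of bases under peaks (%, vertical axis) in 500 bp steps from the gene start (horizontal axis, bp) for members of 3 length classes without the Y' genes, 1 line per library. The Cbp20 lines come down between about 1500 and 3000 bp in each panel, while the Rnt1 lines stay below 7%.

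The middle of the Cbp20-covered bases of a gene lay near the same distance in each class. Its median over genes was 1011 and 1050 bp in members of 4000 to under 5000 bp, 1388 and 1065 bp in those of 5000 to under 6000 bp, and 1077 and 1221 bp in those of 6000 bp or more, in replicates 1 and 2. As a share of gene length, the same medians were 23.1% and 24.8%, 25.2% and 19.7%, and 15.3% and 19.9%. Over all 179 members outside the Y' elements, the first 2000 bp held 38.2% of gene bases. They held 40.0% and 43.8% of the Rnt1-covered bases and 71.8% and 70.3% of the Cbp20-covered bases. Within the first 2000 bp 16.4% and 15.4% of bases were under Cbp20 peaks, and beyond them 3.97% and 4.02%. Genes are not replicates, and these values carry no test. How much of the fall reflects a library's depth or the caller's threshold was not tested.

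In the 250 bp next to the gene, the members had few bases under peaks upstream. Rnt1 covered more bases in the 250 bp downstream than in any bin of the gene. In the 250 bp before the start, 0.968% and 1.46% of bases were under Rnt1 peaks and 3.02% and 1.93% under Cbp20 peaks. In the 250 bp after the end, 4.39% and 6.11% were under Rnt1 peaks and 6.79% and 3.85% under Cbp20 peaks, against at most 2.54% and 5.02% for Rnt1 in a bin of the gene. Without the Y' genes, the upstream values were 1.03% and 1.54% for Rnt1 and 3.20% and 1.88% for Cbp20, and the downstream values 4.66% and 5.09% for Rnt1 and 7.21% and 4.085% for Cbp20. Further upstream, from 250 to 500 bp before the start of all members, Rnt1 covered 3.65% and 6.32% and Cbp20 11.0% and 7.97%. The excess of Rnt1 over the bins of the gene was thus not limited to the downstream side. Another coding gene lies within 300 bp of 100 of the 190 members. Bases under peaks were richer in G and C than the rest. Outside the Y' genes, GC content was 41.3% and 41.2% under Rnt1 peaks, against 37.8% and 37.7% in the rest of the members. It was 41.1% and 42.2% under Cbp20 peaks, against 37.6% and 37.5% in the rest. The first bin was 39.9% GC, the last 39.0% and the 8 between them 37.2% to 37.9%. The part of GC content in the coverage was not tested.

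Among the single genes, Rnt1 had a peak in both replicates on 11 of 190 members (5.79%), against 12.3% of all nuclear coding genes. Genes of 3000 to under 4000 bp were close to the members, with 19 of 285 (6.67%). Replicate 1 called 12 members, against 12.9% of all coding genes, and replicate 2 called 34, against 19.9%, so replicate 1 limits the count. At least 50% of the gene was under Rnt1 peaks in both replicates in 3 members (1.58%), against 6.64% of all coding genes. The share was 1.75% in genes of 3000 to under 4000 bp. Without the Y' genes, 9 of 179 members (5.03%) had a Rnt1 peak in both replicates. All 11 also had Cbp20 in both replicates, so the combination was found on 5.79% of members, against 11.9% of all coding genes. Of the 728 coding genes with Rnt1 in both replicates, 702 had Cbp20 in both, so this overlap was not particular to long genes. On 8 of the 11 members the 2 Rnt1 libraries shared bases. PAN1, an organizer of actin at endocytic sites, YRF1-5 and YRF1-7 had Rnt1 peaks at different places in the 2 libraries. The 5ʹpart was more covered in both Rnt1 replicates in 2 of the 11, against 8.12% of the 382 coding genes of 1000 bp or more with Rnt1 in both replicates, and the 3ʹpart in 5, against 62% of those genes. Of the 9 outside the Y' elements these were 2 and 4.

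**Figure D3:**
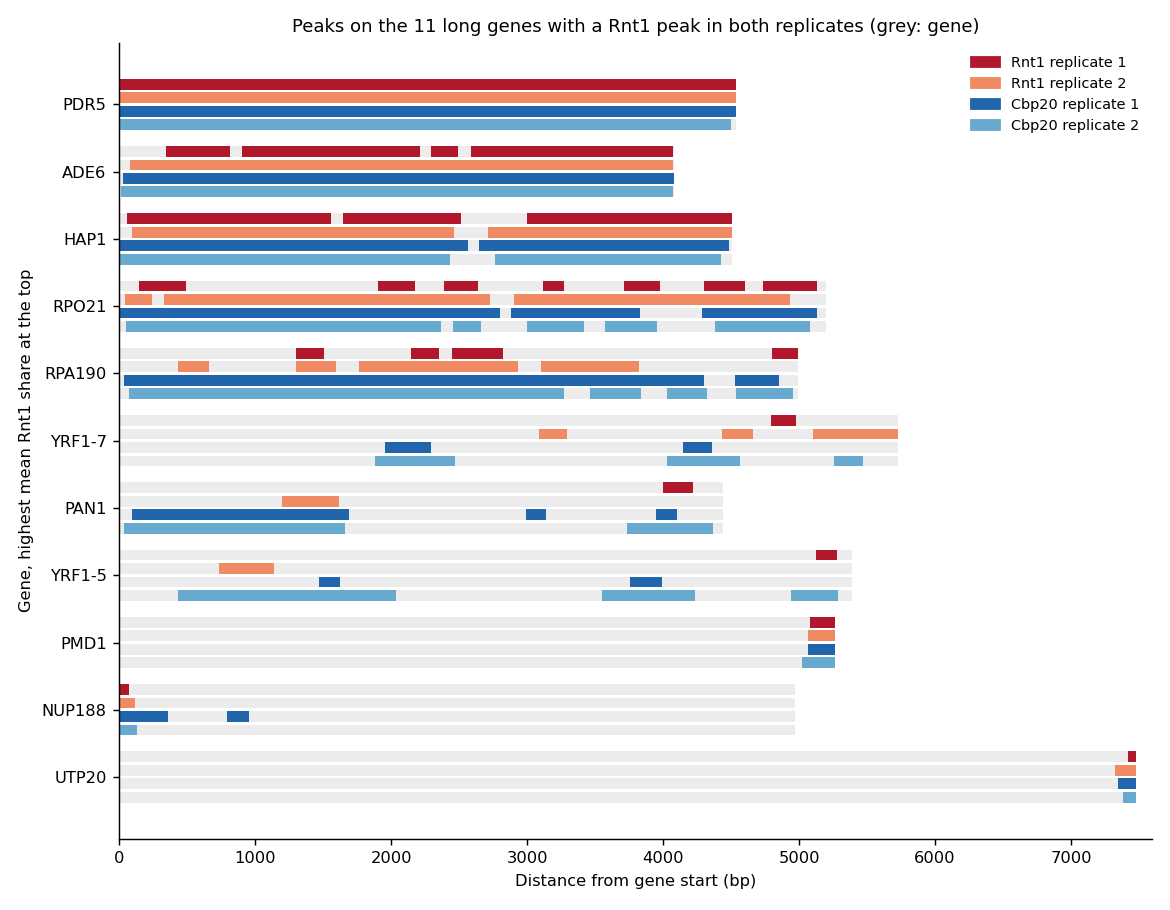
Peaks of all 4 libraries on the 11 long genes with a Rnt1 peak in both replicates, as distance from the gene start (horizontal axis, bp). Each gene has 4 grey bars, from top to bottom Rnt1 replicates 1 and 2 and Cbp20 replicates 1 and 2, coloured where a peak lies, with the highest mean Rnt1 share at the top. PDR5 is covered from end to end by Rnt1, at 100% in both replicates, whereas in UTP20, PMD1 and NUP188 the Rnt1 peaks touch one end of the gene.

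The 5 members with the highest mean Rnt1 share are also the 5 that Cbp20 covered by at least 50% in both replicates. Of these, PDR5, ADE6 and HAP1 alone were at least 50% under Rnt1 peaks in both replicates. PDR5, the main multidrug efflux pump of the plasma membrane, had 100% and 100% of its 4536 bp under Rnt1 peaks and 100% and 99.3% under Cbp20 peaks. ADE6, an enzyme of purine synthesis, had 85.0% and 97.9% under Rnt1 peaks and 99.3% and 99.7% under Cbp20 peaks. HAP1, the heme-responsive transcription factor, had 85.9% and 92.5% under Rnt1 peaks and 97.7% and 90.8% under Cbp20 peaks. The lowest coverage of these 3 genes in any library was 85.0%, without the fall of Cbp20 after the first 2000 bp seen over the members as a group.

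RPO21, the largest subunit of Pol II, had 38.1% and 89.1% of bases under Rnt1 peaks and 88.4% and 77.5% under Cbp20 peaks. RPA190, the largest subunit of RNA polymerase I, had 19.5% and 48.3% under Rnt1 peaks and 91.9% and 85.8% under Cbp20 peaks. In both genes the Rnt1 libraries differed 2.34-fold and 2.48-fold in coverage and Cbp20 covered more than Rnt1 in both replicates of RPA190 and in replicate 1 of RPO21. Cbp20 leaned to the 5ʹside, by 33.7 and 31.6 points in RPO21 and by 22.1 and 24.6 points in RPA190. The bases that both Rnt1 libraries covered in RPA190 came to 783 bp, all inside bins 2 to 9. These 5 genes held 93.1% and 52.8% of all Rnt1-covered bases of the members, and 26.5% and 22.1% of the Cbp20-covered bases. Left out together with the Y' genes, a choice made after their values were seen, they leave 174 members with 0.0594% and 1.41% of bases under Rnt1 peaks. In these 174, Cbp20 covered 14.8% and 13.6% of the first 3 bins and 1.25% and 1.12% of the last 3, although leaving out genes that are covered along the body lowers the last bins by construction. Rnt1 covered 0.0266% and 1.56% of their first 3 bins and 0.171% and 0.906% of their last 3. It was thus higher on the 3ʹside in replicate 1 and on the 5ʹside in replicate 2. The replicate 1 value rests on 543 covered bases, of which 470 lie in the last bin, on PAN1, UTP20 and PMD1. The peaks on UTP20 and PMD1 continue over neighbouring genes.

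The Rnt1 peaks of 3 further members touched one end of the gene and continued over a neighbour. UTP20, a factor of small ribosomal subunit assembly, had 0.869% and 2.11% under Rnt1 peaks and 1.84% and 1.28% under Cbp20 peaks, all at its 3ʹend in peaks that span the histone gene HTA2. PMD1, a Kelch-repeat protein, had 3.50% and 3.71% under Rnt1 peaks and 3.67% and 4.50% under Cbp20 peaks at its 3ʹend, in peaks over the snoRNA gene SNR4. Its Rnt1 peaks went on over the ribosomal protein gene RPS26B. NUP188, a large subunit of the nuclear pore, had 1.47% and 2.30% under Rnt1 peaks at its first bases, in peaks over the snoRNA gene SNR85, and 10.53% and 2.56% under Cbp20 peaks. In each case the bases of the member were the smaller part of the Rnt1 peak. The Rnt1 peaks at the 3ʹend of HAP1 likewise ran 364 and 620 bp past the gene into the reading frame YLR256W-A, a gag gene. The Rnt1 contrast was positive in both replicates in NUP188 (4.90 and 7.65 points) and RPA190 (0.409 and 6.62). It was negative in both in ADE6 (-34.75 and -5.89), PMD1 (-11.7 and -12.4), UTP20 (-2.90 and -7.04), HAP1 (-4.14 and -6.88) and the Y' gene YRF1-7 (-10.7 and -49.45).

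Rnt1 replicate 2 called 23 members that replicate 1 did not, against 1 the other way round (YRF1-2), and for all coding genes these shares were 7.57% and 0.576%. Of the 23, 16 lie outside the Y' elements, with 1.62% to 37.8% of the gene under peaks (median 11.0%). Cbp20 was present in both replicates on 15 of the 16, REA1, the longest member, being the exception. Over all coding genes, 702 of the 728 with Rnt1 in both replicates had Cbp20 in both. The share for coding genes called by Rnt1 replicate 2 alone was not taken. CDC39, the scaffold of the Ccr4-Not deadenylase, had 37.8% under Rnt1 peaks in replicate 2 and 57.7% and 41.7% under Cbp20 peaks. TCB3, a tether between the endoplasmic reticulum and the plasma membrane, had 25.0% and, for Cbp20, 43.5% and 32.0%. NUP170, a nuclear pore subunit, had 12.1% under Rnt1 peaks, all of it where both Cbp20 libraries had a peak. In XRN1, the cytoplasmic 5ʹto 3ʹexonuclease, and in GLT1, glutamate synthase, none of the Rnt1-covered bases were. In this single library the 5ʹpart was more covered in 11 of the 16 and the 3ʹpart in 5. This split was not taken over all coding genes called by Rnt1 replicate 2 alone, so it shows no lean particular to long genes. A single library gives no replicate check.

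Base by base, most of the Rnt1 coverage of long genes lay under Cbp20 peaks. Comparing libraries of the same number, which is only a name here, 93.8% and 81.1% of Rnt1-covered bases were also under Cbp20 peaks, and 17.9% and 32.0% of Cbp20-covered bases were under Rnt1 peaks. With the Y' genes left out, these shares were 97.1% and 83.5% of Rnt1-covered bases and 18.3% and 34.8% of Cbp20-covered bases. On shorter genes the same shares were 99.8% and 97.8% of Rnt1-covered bases and 17.9% and 34.3% of Cbp20-covered bases. In the 174 members without Y' genes and without the 5 genes covered along the body, 77.7% of 543 Rnt1-covered bases and 67.7% of 12910 were under Cbp20 peaks.

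Cbp20 had a peak in both replicates on 61 of 190 members (32.1%), against 44.2% of all nuclear coding genes. By length and without the Y' genes, this was the case for 37 of 116 members of 4000 to under 5000 bp (31.9%), 9 of 29 of 5000 to under 6000 bp (31.0%) and 10 of 34 of 6000 bp or more (29.4%), and for 111 of 281 genes of 3000 to under 4000 bp (39.5%). At least 50% of the gene was under Cbp20 peaks in both replicates in 5 members (2.63%), against 27.4% of all coding genes. On the other side, 107 members (56.3%) had no peak in any of the 4 lists, against 44.2% of all coding genes, and none of the 107 was a Y' gene. The 5ʹpart was more covered than the 3ʹpart in both Cbp20 replicates in 48 of the 61 (78.7%), against 28.6% of the 1558 coding genes of 1000 bp or more with Cbp20 in both replicates. The 3ʹpart was more covered in 7 (11.5%), against 41.1% of those coding genes. Genes of 3000 to under 4000 bp with Cbp20 in both replicates were nearer to the members. Of these 112 genes, 74 (66.1%) leaned to the 5ʹside and 18 (16.1%) to the 3ʹside. Among members outside the Y' elements 47 of 56 leaned to the 5ʹside and 6 to the 3ʹside. In the 56 of the 61 outside the Y' elements, the last Cbp20-covered base lay within 2500 bp of the start in both replicates in 30 genes and within 3000 bp in 39, and the first lay within 500 bp of the start in 40. Their share under Cbp20 peaks, averaged over the replicates, ran from 1.56% to 99.6% with a median of 22.4%.

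**Figure D4:**
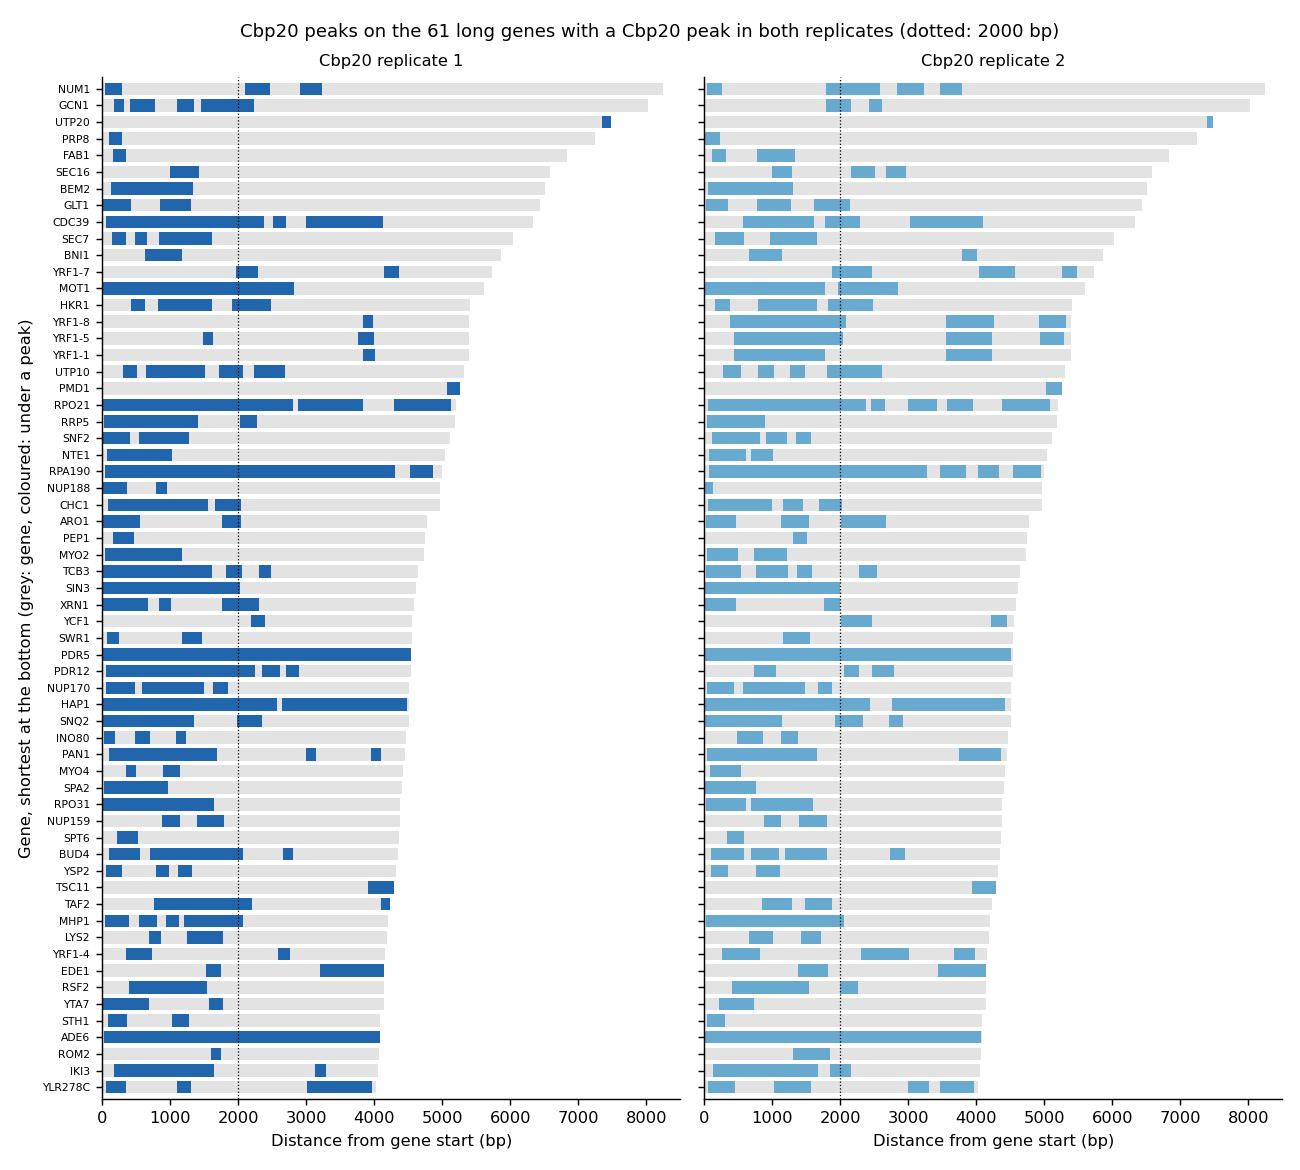
Cbp20 peaks on each of the 61 long genes with a Cbp20 peak in both replicates, as distance from the gene start (horizontal axis, bp). Grey bars are genes, shortest at the bottom, blue bars are bases under a peak, panels are the 2 replicates, and the dotted line stands at 2000 bp. Most blue lies left of that line, and PDR5, HAP1, ADE6, RPO21 and RPA190 are blue along nearly the whole gene.

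The members with the strongest 5ʹlean in both replicates were SIN3, MOT1, RPO31 and SNQ2. SIN3, the scaffold of the Rpd3 histone deacetylase complexes, had 0% and 19.97% of bases under Rnt1 peaks and 43.9% and 43.3% under Cbp20 peaks. On this gene of 4611 bp Cbp20 formed 1 block from the first base to base 2025 in replicate 1 and 1997 in replicate 2. MOT1, the ATPase that removes TATA-binding protein from DNA, is 5604 bp long and had 0% and 18.0% under Rnt1 peaks and 50.3% and 47.4% under Cbp20 peaks, with Cbp20 from the first base to base 2821 and, with a gap, to base 2850. In both genes Cbp20 covered the whole of the first 3 bins and none of the last 3. RPO31, the largest subunit of RNA polymerase III, had no Rnt1 peak, and its Cbp20 peaks ended at base 1648 and 1595 of 4383. SNQ2, a multidrug transporter, had 0% and 35.7% under Rnt1 peaks and 37.9% and 39.0% under Cbp20 peaks, with contrasts of 99.6 and 84.8 points for Cbp20. The 4 genes thus carried Cbp20 over similar lengths of DNA in both replicates while Rnt1 was called in replicate 2 alone or not at all.

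EDE1, YLR278C, TSC11 and YRF1-7 leaned furthest to the 3ʹside. EDE1, a scaffold of early endocytic sites, had 28.2% and 28.1% of bases under Cbp20 peaks, with contrasts of -76.4 and -57.7 points. Its main Cbp20 peak began at base 3197 in replicate 1 and 3429 in replicate 2 and ran to the last base, 4146, with no other annotated gene under it. YLR278C, which codes for an uncharacterized protein, had 36.0% and 43.6% under Cbp20 peaks with regions near both ends and contrasts of -47.2 and -19.0. TSC11, a subunit of the TORC2 kinase complex, had Cbp20 over its last bases alone (8.90% and 8.22%), and the peak reached the neighbouring gene IES5. The Y' gene YRF1-7 is not unique in the genome, and its contrast was -12.3 and -43.9.

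The longest members were nearly free of peaks. REA1, the AAA ATPase midasin of ribosome assembly, is 14733 bp long and had 0% and 1.62% of bases under Rnt1 peaks and 3.68% and 0% under Cbp20 peaks. All of its peaks lay within the first 3063 bp. DYN1, the dynein heavy chain, and VPS13, a lipid transfer protein, had none in any list. TRA1, a subunit shared by the SAGA and NuA4 acetyltransferases, had 0% and 3.12% under Cbp20 peaks, and TOM1, a ubiquitin ligase, had 1.52% and 0%. Each of these 2 had its only peak in the first 985 bp, and no Rnt1 peak. Just above the length threshold, PDR18 (4002 bp) and SEC3 (4011 bp) had no peak. Just below it, SPT7 (3999 bp) had none and SSK22 (3996 bp) had 0% and 6.38% under Cbp20 peaks and no Rnt1 peak.

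By function, Cbp20 was common on long genes of chromatin remodelling and transcription, but no more so than on those of ribosome assembly and splicing (4 of 6). Motors, formins and the cell cortex (5 of 8) came close, and in 4 other groups no gene had Cbp20 in both replicates. The lists hold members by their known role. Of 12 chromatin remodellers and transcription regulators, 8 had Cbp20 in both replicates, set beside 32.1% of all members. Among the 61 members with Cbp20 in both, 78.7% leaned to the 5ʹside in both, and so did all 8 of these genes. Besides MOT1 and SIN3 these were TAF2, a subunit of the general transcription factor TFIID, with 37.5% and 19.7% of bases under Cbp20 peaks, and SNF2, the ATPase of the SWI/SNF remodeller, with 22.6% and 24.0%. INO80 and SWR1, which name 2 other remodellers, had 11.9% and 13.7%, and 10.3% and 8.80%. STH1, the ATPase of the RSC remodeller, had 12.8% and 6.52%, and the elongation factor SPT6 had 6.93% and 5.88%. None of the 12 had Rnt1 in both replicates. Since 5.79% of all members had it, this count does not set the list apart.

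Of 8 genes of motors, formins and the cell cortex, 5 had Cbp20 in both replicates, beside 32.1% of all members. All 5 leaned to the 5ʹside, as did 78.7% of the members with Cbp20 in both replicates. MYO2, the class V myosin that carries vesicles to the bud, had 1132 and 945 of its 4725 bp under Cbp20 peaks, which ended at base 1168 and 1219. NUM1, the cortical anchor of dynein, had 11.3% and 21.1%. PAN1 had 42.8% and 50.7%. Of 6 genes of ribosome assembly and splicing, 4 had Cbp20 in both replicates, again beside 32.1% of all members. Among the 4 is UTP20, whose Cbp20-covered bases are the ends of peaks that span HTA2. UTP10 and RRP5, both of the small subunit processome, had 35.5% and 28.9%, and 31.4% and 16.4%, while PRP8, the core protein of the spliceosome, had 2.67% and 3.18% close to its start.

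The 5 large subunits of RNA polymerases and Mediator split by complex. RPO21, RPA190 and RPO31, 1 from each RNA polymerase, had Cbp20 in both replicates and leaned to the 5ʹside, and SRB8 and SSN2 of Mediator had no peak in any list. Of 7 biosynthetic enzymes 4 had Cbp20 in both replicates, namely ADE6 and the amino acid enzymes ARO1 (17.1% and 31.8%), GLT1 (13.7% and 20.9%) and LYS2 (16.7% and 15.7%). Of 7 nuclear pore genes 3 had it, with NUP170 at 34.6% and 33.9% of bases. Another of the 3 is NUP188, which in replicate 2 had only the end of a peak over SNR85. Of 13 ABC transporters 4 had Cbp20 in both replicates, PDR5, SNQ2, PDR12 and YCF1. The counts of this paragraph stand beside the 32.1% of all members with Cbp20 in both replicates. The share of the ABC transporters was near it. PDR12, an exporter of organic acids, had 58.4% and 18.8% of bases under Cbp20 peaks, a 3.11-fold gap between the libraries.

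The other lists are small, and their counts stand beside the 56.3% of all members that had no peak in any list and the 32.1% that had Cbp20 in both replicates. Of 10 genes of TOR, the DNA damage kinases and Ras and cAMP signalling, GCN1, the activator of the kinase Gcn2, alone had Cbp20 in both replicates, at 19.4% and 7.10% of bases, and 8 had no peak in any list. The 7 DNA polymerases, helicases and topoisomerase genes and the 4 cell wall synthases and flocculins had no peak in any list. No gene among 9 phospholipid flippases and lipid transfer proteins or 6 ubiquitin ligases and proteasome activators had Cbp20 in both replicates, and 7 and 4 of them had no peak, which for the ubiquitin list is near the share over all members. At an unknown depth this does not show that CBC was missing from them.

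**Figure D5:**
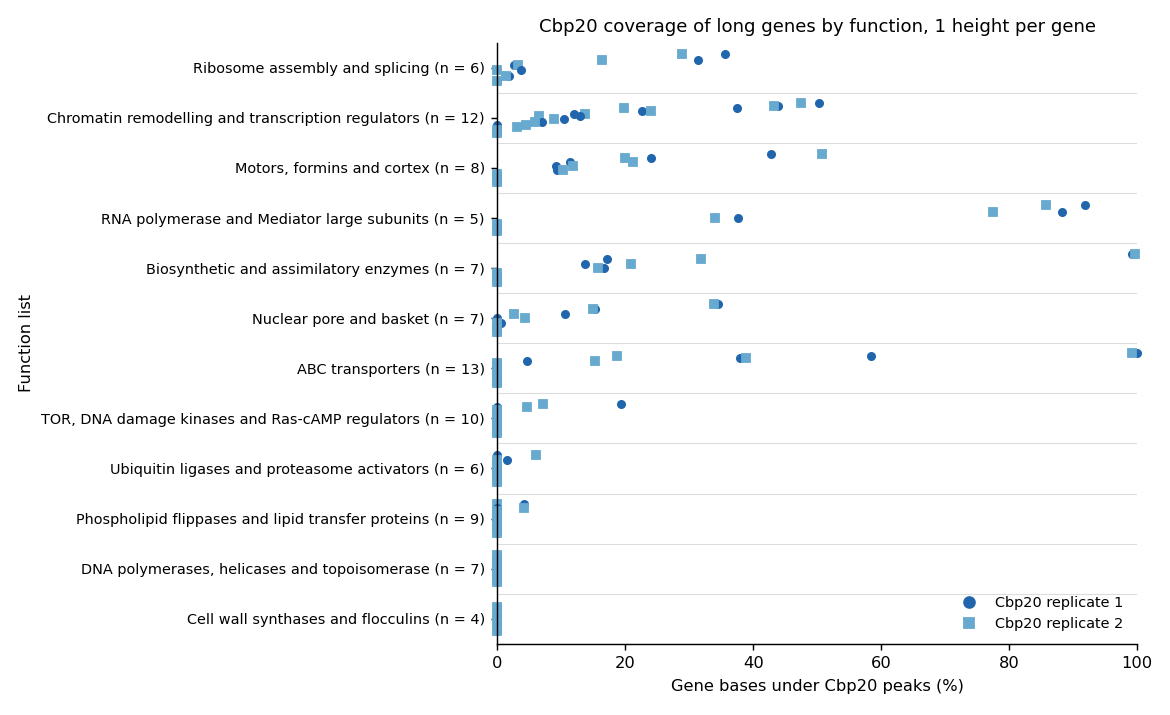
Share of gene bases under Cbp20 peaks (%, horizontal axis) for the members of 12 function lists (vertical axis), 1 height per gene, circles for replicate 1 and squares for replicate 2. Squares at 0 can hide circles. Lists are ordered by the share of genes with Cbp20 in both replicates, and the 5 lists at the bottom hold 1 such gene among 36, GCN1.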

How the data were processed

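The authors deposited 4 peak lists, 1 per library, with chromosome, start and end of each peak and no score, signal or count. Their methods describe mapping of paired reads to sacCer3 with Bowtie2, retention of unique reads with mapping quality of at least 30, and MACS2 peaks with q-values below 0.05. The versions were not given in the sources used here. The methods give 1 procedure. The peak numbers they state, 1238 for Rnt1 and 3801 for Cbp20, are those of the replicate 1 lists. Whether the replicate 2 lists were called with the same settings is not stated. Shares of gene bases under peaks were computed with Python 3.11.15 and numpy 2.4.6, and plots were made with matplotlib 3.10.9. Gene positions came from the RefSeq R64 annotation, and no peak passed a chromosome end. The RNA-seq samples, 7 in number, were not used.

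A peak counted on a gene from 1 bp of overlap. Shares pool bases over genes. Proteins were compared by exact permutation over libraries, and long with shorter genes by exact sign flips within libraries. The scripts were tested on simulated data. No chance model over genes was used, since genes are not replicates.

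Genes were named by rule. These were the 5 longest, the 2 nearest to either side of the length threshold, the 5 with the highest share of each protein, the 4 with the largest contrast to each side where both replicates had the same sign, those with Rnt1 in both replicates, and examples from 12 function lists in order of their mean share. CDC39, TCB3, NUP170, XRN1 and GLT1 were named in the paragraph on Rnt1 replicate 2 after their values were seen. The members and lists were chosen with earlier results of these data known. Alternatives are given at the end. Leaving out the Y' genes was added after the data had been seen.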

Additional observations from a re-analysis of the deposited data

Results flagged for a closer look

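HAP1 was singled out because both libraries of one protein lay on one side of 0 and both libraries of the other on the opposite side. Its 5ʹto 3ʹcontrast was -4.14 and -6.88 percentage points for Rnt1 and 1.77 and 6.28 for Cbp20, a difference of -9.54 points. The difference was not tested, since 2 libraries against 2 cannot pass a threshold. Its Rnt1 peaks ran past the 3ʹend into YLR256W-A.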

How the results depend on the processing

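The 6 differences kept their direction under every alternative run. Rnt1 minus Cbp20 ranged from -7.42 to -4.66 percentage points for the share of bases over 11 alternatives. For the contrast it ranged from -44.9 to -8.82, apart from -1.53 when each bin was divided by the library's mean bin, which is another scale. Long minus shorter genes ranged from -21.6 to -15.3 for the Cbp20 share, -6.46 to -3.35 for the Rnt1 share, 9.12 to 16.1 for the Cbp20 contrast and 1.72 to 4.93 for the Rnt1 contrast. Using 20 bins gave the same contrasts by construction. Taking differences within same-numbered libraries (the replicate block) gave -6.28 and -12.2 with an exact sign-flip p = 0.5, and the labels number only 1 of the 2 libraries, so this is no pairing by design.

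Counts depended on the rule. Members with Rnt1 in both replicates, 11 in all, were 3 at a coverage of at least 50%, 5 at 10% and 5 of at least 5000 bp. Members with Cbp20 in both, 61 in all, were 5 at a coverage of at least 50%, 35 with the wider 50% of peaks and 23 of at least 5000 bp. With 1 replicate left out these counts ranged from 12 to 34 for Rnt1 and from 68 to 76 for Cbp20. Depth is unknown, and with 2 libraries per protein no test could pass 0.05.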

Other observations

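The replicate 2 lists differed from the replicate 1 lists in the width of their peaks. The narrowest peak was 199 bp in both replicate 2 lists and 146 bp in both replicate 1 lists, and the widest was 17434 bp for Rnt1 and 17481 bp for Cbp20 in replicate 2, against 5207 and 5693 bp in replicate 1. All 11 Y' genes had Cbp20 in replicate 2 and 5 had it in replicate 1, with a median share of 23.4% and 0% of the gene. A further 5 members hold under 90% of bases in unique 50 bp stretches, and of these NUM1 alone had peaks.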
